A study of Mus musculus with 25 samples.

Results

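Rgs2, Ier5, Klf10, Gadd45b, Gadd45g, Dusp1, Dusp4, Dusp5, Dusp6 and Homer1 are genes that nerve cells switch on when they are strongly active and whose products limit signalling or adapt the cell to it. These 10 genes were picked by symbol, with earlier results of these data known, from the 24421 symbols counted in hippocampal RNA sequencing libraries. All 10 passed the filter on low counts that left 15912 genes for testing. The mice were wild type or carried 1 disrupted copy of Scn1a (Scn1a+/-), a gene for a voltage-gated sodium channel, which makes them a model of Dravet syndrome, a severe childhood epilepsy. They were either of the strain 129S6/SvEvTac (129S6) or first-generation offspring of 129S6/SvEvTac and C57BL/6 parents (F1), a cross in which Scn1a+/- mice are known to have seizures.

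At postnatal day 24 (P24) the F1 libraries comprised 3 of Scn1a+/- mice labelled as having had seizures, 2 of Scn1a+/- mice without that label, called seizure-free here, and 3 of wild-type mice. The P24 129S6 libraries comprised 3 labelled Scn1a+/- and 3 labelled wild type. The P14 F1 libraries were 3 of Scn1a+/- and 3 of wild-type mice, and the P14 129S6 libraries 3 of Scn1a+/- and 2 of wild-type mice. Each library was a pool of mice, with 3 to 4 mice in each seizure pool and 12 to 16 in the others, so a pool averages over mice and the seizure pools average over fewer. The interval between a seizure and tissue collection is not given in the sources used here, and the seizure group differs from the wild type in genotype as well as in seizures. The labels do not say whether pools of 1 group came from different litters or days, and the p-values cover the spread among these pools alone, which may be technical.

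Total counts ran from 7436442 to 25520050 per library, and levels are given as CPM, counts scaled to library size with the TMM method. Scn1a itself checked the labels. It stood at 82.0, 68.8 and 89.0 CPM in the seizure libraries, 115 and 92.9 CPM in the seizure-free Scn1a+/- libraries and 129.7, 124 and 128 CPM in the P24 F1 wild type. At P24 in 129S6 its levels ran counter to the labels, at 134.5, 143.8 and 142.1 CPM in those labelled Scn1a+/- and 110.3, 109.3 and 110.8 CPM in those labelled wild type. The file names of these 6 libraries give the opposite genotype, so each sign of that genotype comparison turns round if the file names are right, and the test of whether the genotype difference differs by strain at P24 changes in size as well. Contrasts of age and strain average both genotypes and do not depend on it. All 5 markers of each of 4 neuronal lists (neurons, dentate granule cells, CA1 and CA3 pyramidal cells) had counts in every group. So did the markers of choroid plexus and thalamus, so such counts do not tell hippocampus from neighbouring tissue. The haemoglobin genes Hba-a1 and Hbb-bs were at 0 in all groups. The other blood cell markers had counts in every group, so these zeros do not show that blood was absent.

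When a nerve cell fires strongly, calcium entry and glutamate receptors activate protein kinases, among them the MAP kinases ERK, JNK and p38, which lead to the rapid transcription of immediate early genes. Some of these genes encode brakes on the same signals. Dusp genes encode phosphatases that remove the activating phosphates from MAP kinases, Rgs2 speeds the shutdown of Gq proteins, and the short form of Homer1 uncouples group I metabotropic glutamate receptors from the long Homer scaffolds. Gadd45 proteins bind and activate a MAP kinase kinase kinase and take part in removing DNA methylation, and Ier5 and Klf10 act on transcription.

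Promoter sequence is shown for the members whose start sites carry one of the motifs through which calcium and MAP kinase signals are known to reach immediate early genes. RefSeq promoter entries on GRCm38.p6, the assembly of mm10, were found for 8 of the 10 members, all but Klf10 and Dusp4, and Homer1 had entries for more than 1 start site. The 250 bases upstream of each start were searched on both strands for the cAMP response element TGACGTCA, its shorter core TGACG, which reads CGTCA on the other strand, the AP-1 site TGANTCA and the CArG box of serum response factor. In the sequences below, 5′ to 3′ on the strand of the gene, capitals mark these matches.
Rgs2, chr1:144004150-144004399, minus strand: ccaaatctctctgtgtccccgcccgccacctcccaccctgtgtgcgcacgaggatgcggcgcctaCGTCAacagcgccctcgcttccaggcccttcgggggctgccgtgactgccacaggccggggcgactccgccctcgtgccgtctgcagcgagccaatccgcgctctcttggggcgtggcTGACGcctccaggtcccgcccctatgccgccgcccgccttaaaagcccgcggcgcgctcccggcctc
Dusp1, chr17:26508473-26508722, minus strand: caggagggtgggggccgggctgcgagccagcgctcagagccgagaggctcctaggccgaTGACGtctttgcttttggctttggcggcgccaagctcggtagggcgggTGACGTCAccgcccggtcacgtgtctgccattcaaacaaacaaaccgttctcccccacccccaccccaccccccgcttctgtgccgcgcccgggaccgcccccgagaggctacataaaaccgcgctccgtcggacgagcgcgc
Dusp5, chr19:53528895-53529144, plus strand: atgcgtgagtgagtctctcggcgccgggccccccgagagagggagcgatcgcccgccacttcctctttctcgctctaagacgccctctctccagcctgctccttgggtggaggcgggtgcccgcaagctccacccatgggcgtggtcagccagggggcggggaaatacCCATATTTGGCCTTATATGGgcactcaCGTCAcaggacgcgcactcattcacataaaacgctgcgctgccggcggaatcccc
Homer1, first start site, chr13:93303507-93303756, plus strand: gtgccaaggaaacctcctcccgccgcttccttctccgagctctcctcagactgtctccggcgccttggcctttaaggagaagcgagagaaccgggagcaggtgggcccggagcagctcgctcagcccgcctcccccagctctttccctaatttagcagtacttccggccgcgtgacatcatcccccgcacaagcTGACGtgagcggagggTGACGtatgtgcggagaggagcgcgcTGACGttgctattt

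The Rgs2 window held cores whose first bases lay at -185 and -67 from the start. The Dusp1 window held the full element at -143, which includes the cores at -143 and -140, and a further core at -191. The Dusp5 window held adjoining CArG boxes, CCATATTTGG at -82 and CCTTATATGG at -72, and a core at -55. The Homer1 window held cores at -56, -40 and -14. Over all 32851 promoter windows of the same length, 17.8% held the core, 1.55% the full element, 6.75% the AP-1 site and 1.47% a CArG box. None of these letters was found in the windows of Ier5, Gadd45b, Gadd45g, Dusp6 or the second Homer1 start, and the AP-1 letters were in none of the members' windows. These matches describe the letters of these windows only.

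The first question was what seizures do to these genes at P24 in F1 mice. Of the 10 members, 9 were higher in the seizure group than in wild type and 1, Dusp1, did not pass the test. Over all genes tested, 22.5% were called in the same comparison, 12.4% higher and 10.1% lower. The seizure and wild-type libraries did not overlap in any of the 10 members, beside 31.4% of all genes. The median log2 fold change of the members was 0.94, beside 0.01 over all genes. As the members were chosen with earlier results known, these shares describe them and do not test the set. Calls rest on an adjusted p (Benjamini-Hochberg) under 0.05 in edgeR's quasi-likelihood test, which gives every adjusted p below. The SEs, intervals and p-values use a spread shared over all 9 groups. Counts differed more between seizure pools (chi-square per degree of freedom 18.3 to 40.2) than between pools of any other group (at most 8.59). For the seizure comparisons the uncertainty may therefore be larger than printed. In bulk tissue, fewer cells of a type and less RNA per cell cannot be told apart.

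**Figure D1:**
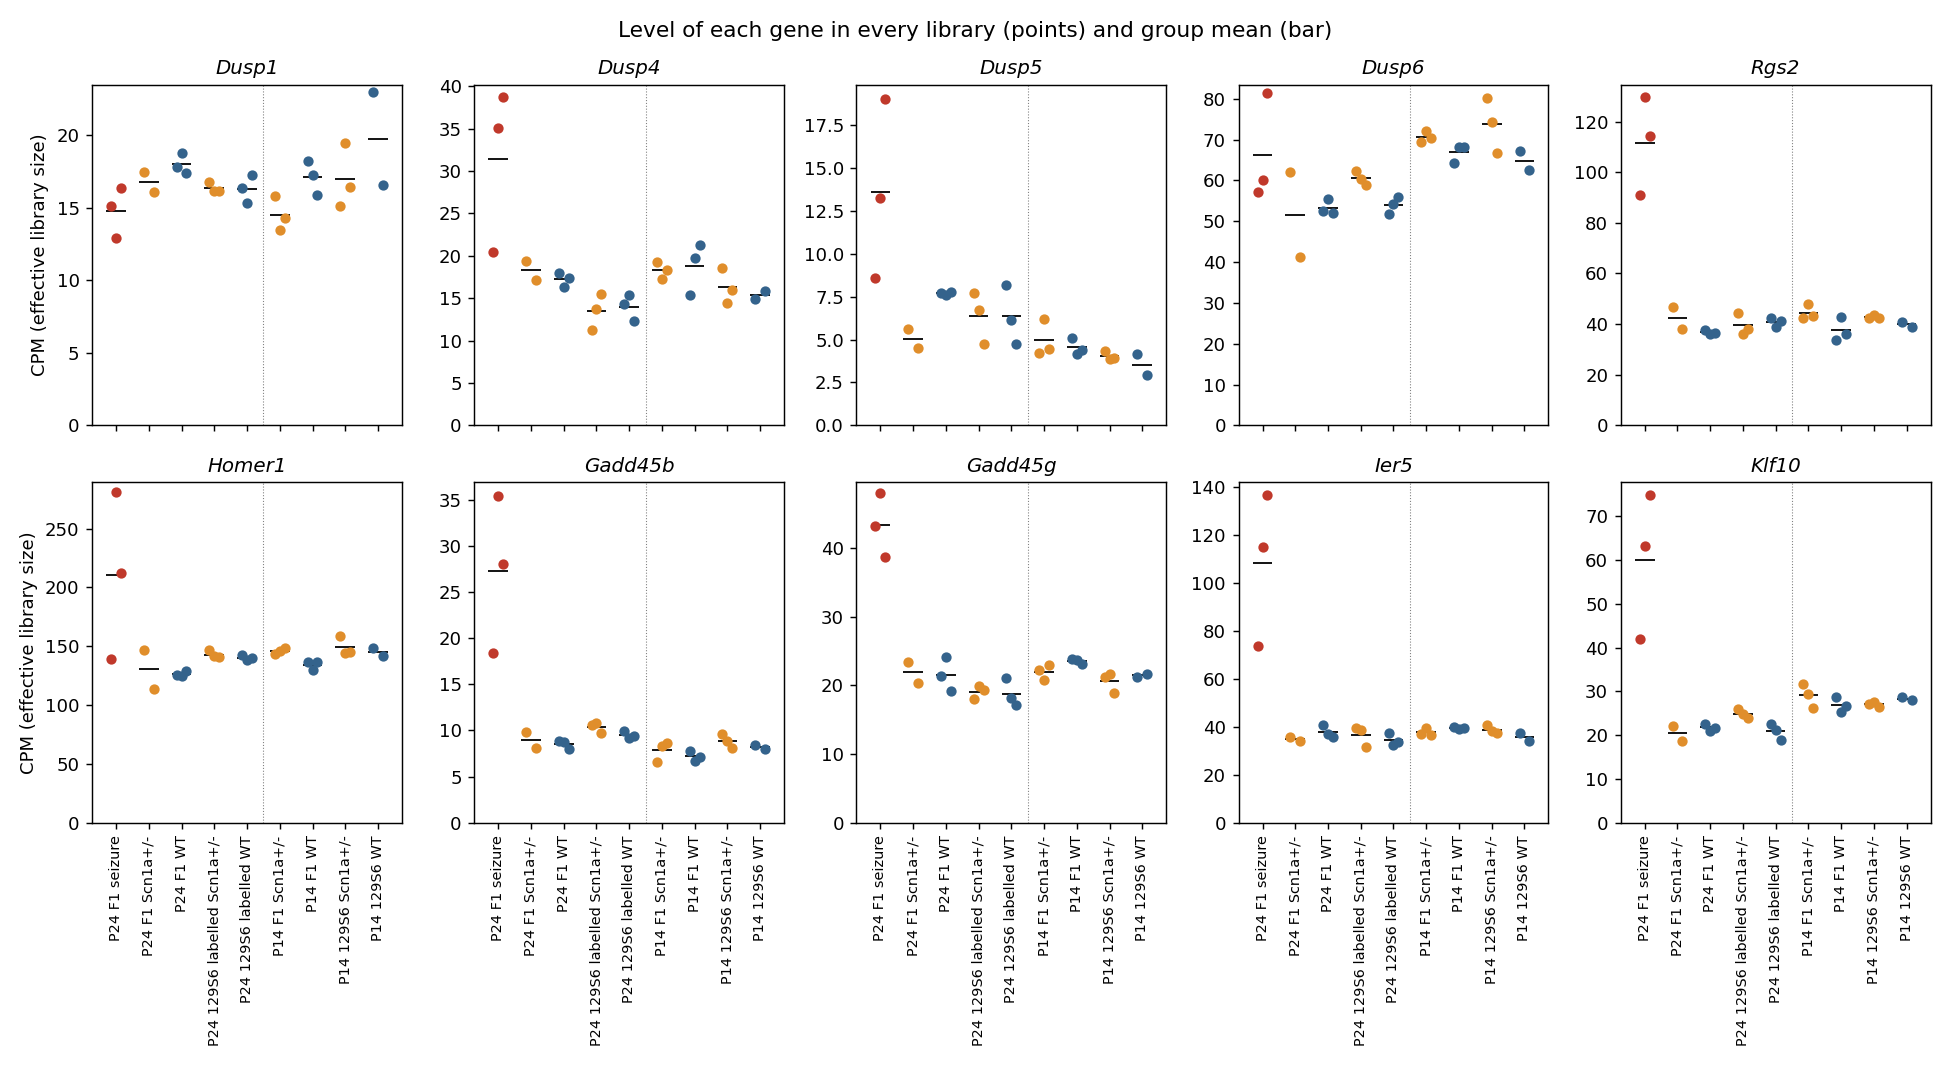
Level of each of the 10 members in CPM (y axis, linear from 0) in every library of the 9 groups (x axis); points are libraries and bars are group means. The 3 seizure libraries stand above all the wild-type P24 F1 libraries for every member except Dusp1, for which they stand below.

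Rgs2, the regulator of Gq signalling (chromosome 1, 143999338 to 144004149, GRCm38.p6), stood at 90.9, 129.7 and 114 CPM in the seizure libraries, 46.8 and 38.0 CPM in the seizure-free Scn1a+/- libraries and 37.7, 36.0 and 36.7 CPM in wild type. All 3 seizure libraries were far above every other P24 F1 library. The log2 fold change of seizure over wild type was 1.60 ± 0.10 (SE), a 3.04-fold rise with a 95% interval of 2.64 to 3.49 (adjusted p = 6.33e-14). Rgs2 ranked 16 by p among the 15912 genes.

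Homer1, the postsynaptic scaffold gene (chromosome 13, 93303757 to 93405129), stood at 139, 281 and 212.5 CPM in the seizure libraries, 147 and 114 CPM in the seizure-free libraries and 125, 125 and 129 CPM in wild type. The lowest seizure library was above every wild-type library but below the higher seizure-free library. Homer1 rose by 0.74 ± 0.12 on the log2 scale over wild type, or 1.67-fold (adjusted p = 2.84e-05), and by 0.70 ± 0.14 over seizure-free Scn1a+/- mice (adjusted p = 0.000563). The counts are per gene, so the short activity-induced form and the long scaffold forms cannot be told apart.

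The Gadd45 genes both rose. Gadd45b (chromosome 10, 80930091 to 80932204) stood at 18.4, 35.4 and 28.0 CPM in the seizure libraries, 9.79 and 8.11 CPM in the seizure-free libraries and 8.82, 8.71 and 8.02 CPM in wild type. Its fold change over wild type was the highest of the members, at 3.20-fold (log2 1.68 ± 0.15, adjusted p = 2.04e-10). Gadd45g (chromosome 13, 51846675 to 51848475) stood at 43.1, 48.0 and 38.7 CPM in the seizure libraries, 23.4 and 20.4 CPM in the seizure-free libraries and 21.3, 24.1 and 19.1 CPM in wild type. It was 2.01-fold higher (log2 1.01 ± 0.09, adjusted p = 5.67e-10), and for both genes no seizure library overlapped any library of the other P24 F1 groups.

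Ier5, which is known to work with heat shock factor 1 (chromosome 1, 155096367 to 155099636), stood at 73.7, 115 and 137 CPM in the seizure libraries, 35.7 and 34.0 CPM in the seizure-free libraries and 40.6, 37.1 and 36.0 CPM in wild type. Klf10, a TGF-beta-inducible zinc finger repressor (chromosome 15, 38291464 to 38300711), stood at 41.9, 63.3 and 74.9 CPM in the seizure libraries, 22.2 and 18.7 CPM in the seizure-free libraries and 22.7, 21.0 and 21.7 CPM in wild type. Both rose with no overlap between the seizure libraries and the others, and in both the third seizure library was highest. The fold changes over wild type were 2.86-fold for Ier5 (log2 1.52 ± 0.12, adjusted p = 3.58e-11) and 2.75-fold for Klf10 (log2 1.46 ± 0.12, adjusted p = 6.84e-11).

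The MAP kinase phosphatases differed among themselves. Dusp4, a nuclear phosphatase (chromosome 8, 34807610 to 34819894), stood at 20.5, 35.1 and 38.8 CPM in the seizure libraries, 19.4 and 17.2 CPM in the seizure-free libraries and 18.0, 16.3 and 17.4 CPM in wild type. Dusp5, a nuclear phosphatase selective for ERK (chromosome 19, 53529145 to 53541809), stood at 8.58, 13.3 and 19.0 CPM in the seizure libraries, 5.63 and 4.50 CPM in the seizure-free libraries and 7.70, 7.57 and 7.79 CPM in wild type. Both rose over wild type, Dusp4 by 1.82-fold (log2 0.87 ± 0.15, adjusted p = 3.86e-05) and Dusp5 by 1.77-fold (log2 0.82 ± 0.20, adjusted p = 0.00214). In each the first seizure library lay just above the highest library of the other P24 F1 groups and the other 2 lay well above it.

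Dusp6, the cytoplasmic ERK phosphatase (chromosome 10, 99263231 to 99267489), stood at 57.3, 60.0 and 81.4 CPM in the seizure libraries, 62.1 and 41.2 CPM in the seizure-free libraries and 52.4, 55.5 and 52.1 CPM in wild type. It was 1.24-fold higher than in wild type (log2 0.31 ± 0.10, adjusted p = 0.0282). That call rests on the third seizure library, since without it the log2 fold change was 0.12 (adjusted p = 0.33). It was also lost when any 1 of the 3 wild-type libraries was left out.

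Dusp1, the immediate early phosphatase of JNK, p38 and ERK (chromosome 17, 26505591 to 26508472), stood at 15.1, 12.9 and 16.4 CPM in the seizure libraries, 17.5 and 16.1 CPM in the seizure-free libraries and 17.8, 18.8 and 17.4 CPM in wild type. Every seizure library lay below every wild-type library, the reverse of the order in the other members. The log2 fold change was -0.28 ± 0.11 (adjusted p = 0.0633), with an unadjusted 95% interval of -0.51 to -0.06, so a rise of the size seen in the other members lies outside that interval. Without the third seizure library Dusp1 was called lower (log2 -0.37, adjusted p = 0.0153).

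**Figure D2:**
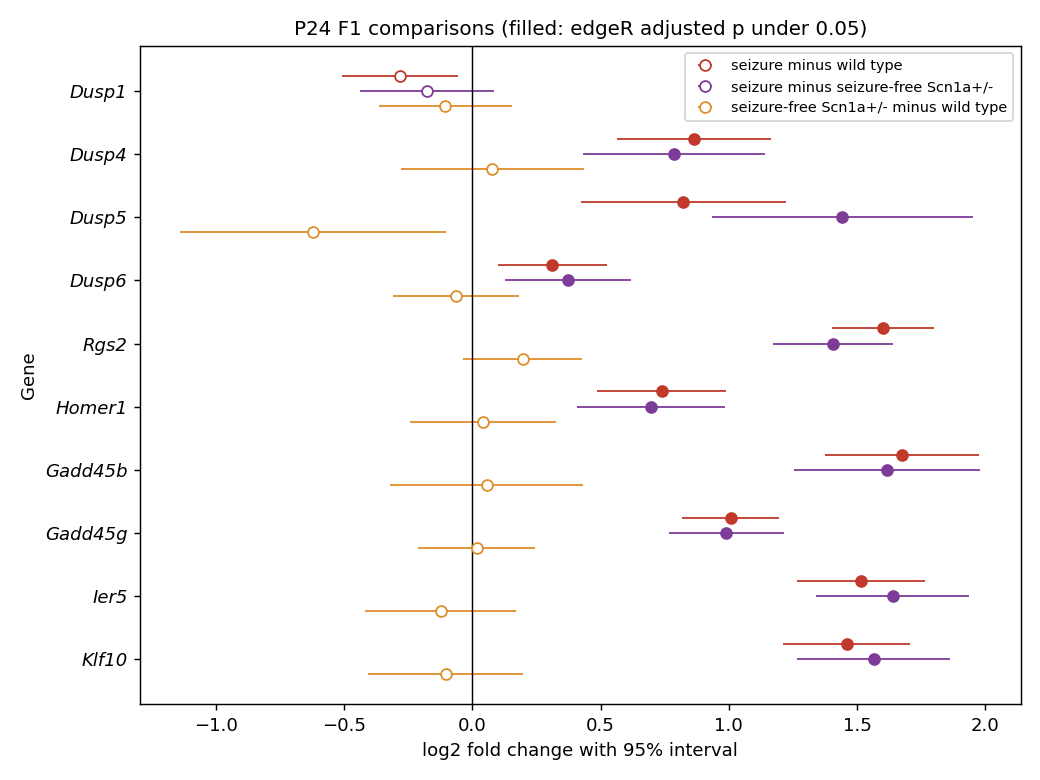
Log2 fold change (x axis) with its 95% interval for each member (y axis), at P24 in F1, for the seizure group over wild type, the seizure group over seizure-free Scn1a+/- mice and seizure-free Scn1a+/- mice over wild type; filled markers passed the test and open markers did not. All members but Dusp1 lie above 0 in both seizure comparisons. Dusp1 lies at -0.28 over wild type and -0.18 over seizure-free mice. No member passed between the groups without the seizure label.

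The second question was whether the change goes with the seizures when both groups carry the same genotype. Against seizure-free Scn1a+/- mice, 9 of 10 members were again higher and Dusp1 did not pass, at -0.18 ± 0.13 (adjusted p = 0.406), where 8.72% of all genes were called higher. The seizure libraries are shared by both comparisons, so the counts are not independent. Ier5 was 3.12-fold higher, Gadd45b 3.07-fold, Klf10 2.96-fold, Rgs2 2.65-fold and Gadd45g 1.99-fold. Dusp5 was 2.72-fold higher than in seizure-free mice (log2 1.44 ± 0.25, adjusted p = 7.14e-05), against 1.77-fold higher than in wild type. In 7 members the seizure and seizure-free libraries did not overlap, as in 32.0% of all genes.

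The calls of Dusp4, Dusp6 and Homer1 over seizure-free mice were the least secure and were lost without the second seizure-free library. Without it none of the 3 passed, at log2 0.69 for Dusp4 (adjusted p = 0.0608), 0.51 for Homer1 (0.0682) and 0.09 for Dusp6 (0.765), and 6 members stayed called. The same 3 calls were lost when the fit held only the libraries compared, at nearly unchanged folds of 0.78, 0.69 and 0.36. The first seizure-free library was above the second in 10 of 10 members, by 1.05-fold for Ier5 up to 1.51-fold for Dusp6, with a median of 1.20-fold. Over all genes the first library was above the second in 51.7%, with a median ratio of 1.01. The summed neuron markers were 3509 CPM in the first library and 2679 CPM in the second, and their part in this was not tested.

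The size of the response varied among the seizure pools. Of the 9 members called higher over wild type, the first seizure library was the lowest in 8, or 88.9%, beside 42.7% of the 1966 genes called higher. The third library was the highest in 5 of the 9, beside 31.4% of the 1966 genes, and the second in 4, beside 44.9%. Set against the wild-type mean, the median of the 9 was 1.93-fold in the first library, 2.23-fold in the second and 2.48-fold in the third. Over the 1966 genes these medians were 1.32-fold, 1.44-fold and 1.35-fold.

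**Figure D3:**
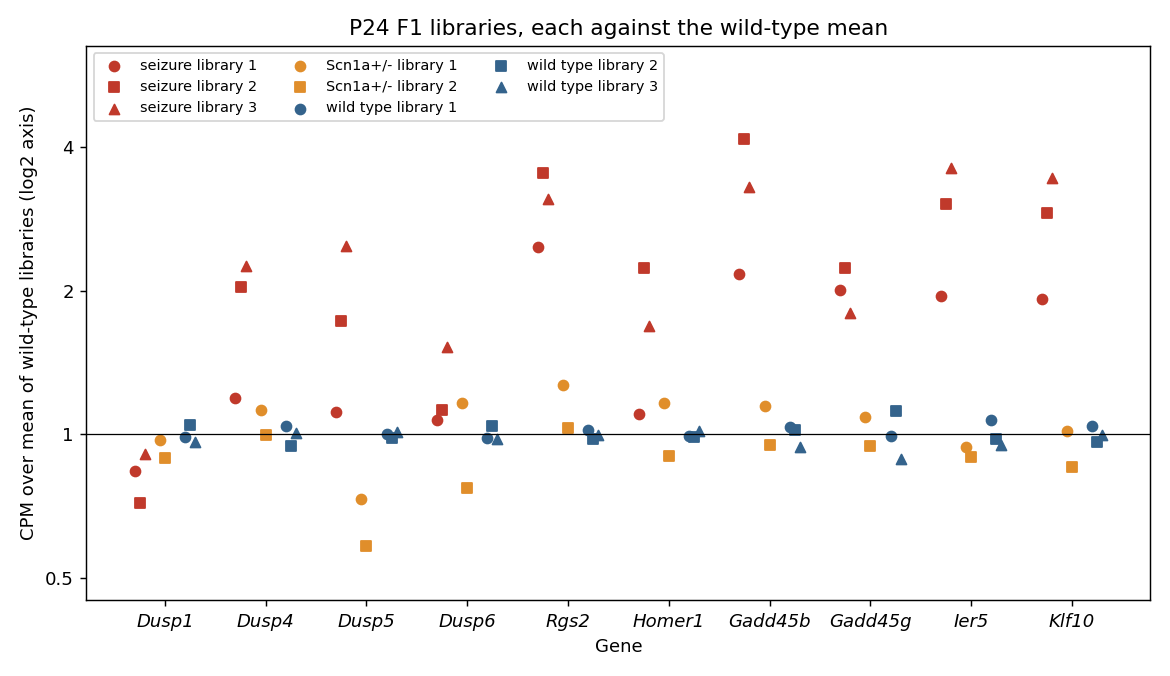
Level of each member in each P24 F1 library, as a fold over the mean of the wild-type libraries (y axis, log scale), for the seizure, seizure-free Scn1a+/- and wild-type libraries. The first seizure library is the lowest of the 3 in 8 of the 9 members called higher, and Dusp1 stays below 1 in every seizure library.

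Markers of other cell types moved with the seizure group. All 6 reactive astrocyte markers rose over wild type, and their summed level was 3877, 3547 and 2876 CPM in the seizure libraries, 927 and 1017 CPM in the seizure-free libraries and 717 to 785 CPM in wild type. That sum was highest in the first seizure library, where the members were mostly lowest. The 5 neuron markers summed to 2940, 2375 and 3753 CPM in the seizure libraries, 3509 and 2679 CPM in the seizure-free libraries and 3263 to 3750 CPM in wild type, and 1 of them, Syt1, fell. Of the dentate granule cell markers Dsp and Lct fell while C1ql2 and Pdzd2 rose, and 3 of 5 CA1 markers fell. The part of these shifts in the members' changes was not tested.

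The other genes of the same families and pathways were counted from lists (the plot of related lists gives all of them). Among 10 other dual-specificity phosphatases 2 were higher and none lower in seizure mice than in wild type, with a median log2 fold change of 0.04. They were Dusp14, at 34.6 ± 6.87 CPM in the seizure group and 20.9 ± 0.29 CPM in wild type (SD, n = 3 each; log2 0.73), and Dusp26 (log2 0.35). Among 8 inhibitors of the ERK pathway of the sprouty and spred families and Errfi1, 4 rose and none fell, with a median of 0.24. Spry2 averaged 62.0 ± 13.5 CPM in the seizure group and 42.3 ± 2.40 CPM in wild type, Spry4 21.2 ± 5.79 and 14.4 ± 0.34 CPM, and Spred2 79.9 ± 12.3 and 63.2 ± 0.90 CPM. The MAP kinases and their activators, on which the Dusp phosphatases act, were called higher in 4 of 19 genes and lower in 2, with a median of -0.02, and Mapk12 (log2 0.85), Map2k3 (0.44) and Mapk7 (0.36) were the largest changes.

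Other RGS genes, which encode further brakes on G proteins, were called higher in 7 of 15 and lower in 2 (median 0.19). Rgs4 had the largest change among them, at 529 ± 93.3 CPM in the seizure group and 173 ± 7.13 CPM in wild type (SD, n = 3 each), a log2 fold change of 1.62 ± 0.09 with an adjusted p of 2.23e-14. Rgs20 (log2 0.63) and Rgs6 (0.48) were also higher. The Gq-coupled receptors and effectors that Rgs2 and Rgs4 restrain were called in 2 of 14, Adra1a higher (0.64) and Chrm3 lower (-0.56), with a median of -0.11.

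Among 7 other Homer genes and Homer partners 1 rose and 3 fell (median -0.08). The receptor of inositol trisphosphate Itpr1, which long Homer proteins tether, fell to 307 ± 25.3 CPM in the seizure group, against 456.5 ± 12.7 CPM in wild type (log2 -0.57 ± 0.07, adjusted p = 5.55e-08). Homer2 was lower (-0.32) and Homer3 higher (0.28).

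Among Gadd45a and the partners of Gadd45 proteins, 3 of 7 rose and 1 fell (median 0.28). Gadd45a itself rose (log2 1.15 ± 0.18, adjusted p = 8.72e-06) at a low level, 5.51 ± 0.74 CPM in the seizure group and 2.48 ± 0.41 CPM in wild type. The cell cycle inhibitor Cdkn1a rose by 1.46 ± 0.14 and the DNA demethylase gene Tet3 by 0.52 ± 0.09. The relatives of Ier5 and Klf10 went in both directions, 3 of 15 higher and 5 lower (median -0.07), with Ier2 higher (1.03), Ier5l higher (0.53) and Klf15 lower (-0.79).

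Of 12 other inducible genes that feed back on signalling or transcription, 7 rose and 1 fell (median 0.37). Socs3, the inhibitor of cytokine signalling, averaged 15.9 ± 10.5 CPM in the seizure group and 1.91 ± 0.54 CPM in wild type (log2 3.06 ± 0.30, adjusted p = 1.56e-09). The mRNA decay factor Zfp36 rose by 1.16 ± 0.21 and Btg2 by 0.74 ± 0.20. Since Dusp1 is also a known glucocorticoid target, a list of 8 glucocorticoid-responsive genes was read beside it. In it 2 were higher and 3 lower (median -0.31), with Tsc22d3 (-0.76), Zbtb16 (-0.51) and Pdk4 (-0.51) the largest changes. All 3 were lower in the seizure group, and the 2 called higher had smaller changes. Whether glucocorticoids play a part in the level of Dusp1 was not tested.

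**Figure D4:**
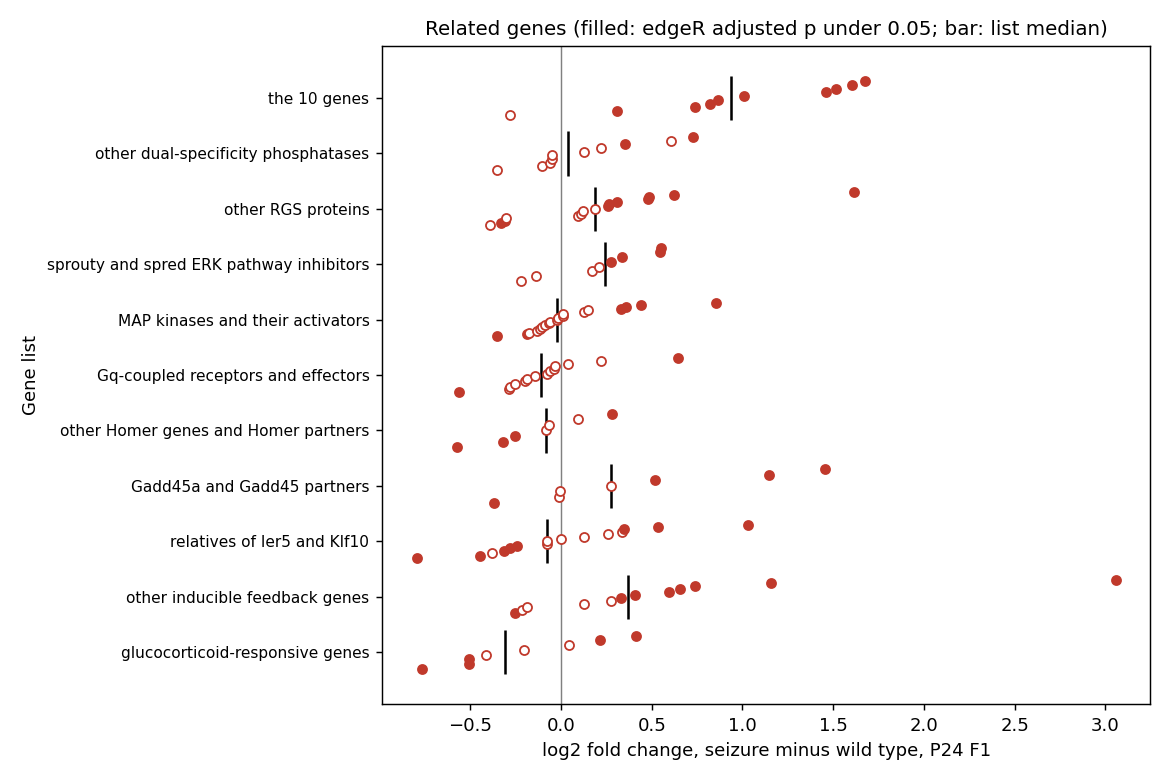
Log2 fold changes of seizure over wild type at P24 in F1 (x axis) for each gene of the 10 members and of the related gene lists (y axis), with each list's median; filled points passed the test. The members' median is 0.94 and the medians of the other lists lie between -0.31 and 0.37.

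The genotype was read in mice without the seizure label, which does not show that no seizure occurred. In P24 F1 mice no member was called between seizure-free Scn1a+/- and wild type, as no gene at all was (0% of 15912 genes by edgeR, 889 at an unadjusted p under 0.05, and 0 by DESeq2). The count of genes depended on the fit and reached 200 without the seizure libraries, while that of members stayed at 0 in every alternative run. The largest difference was in Dusp5, whose seizure-free libraries were both below all 3 wild-type libraries (log2 -0.62 ± 0.25, unadjusted p = 0.0204, adjusted p = 0.833). For the other 9 members the log2 difference ran from -0.12 for Ier5 to 0.20 ± 0.11 for Rgs2, and the unadjusted 95% intervals of all 10 stayed between -1.14 and 0.44. The libraries did not overlap in 3 of 10 members, Rgs2, Ier5 and Dusp5, beside 29.1% of all genes.

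Neither was any member called between genotypes in the other strain and age groups, where 0% of genes were called (471 genes at an unadjusted p under 0.05 at P24 in 129S6, 724 at P14 in F1 and 391 at P14 in 129S6). In P24 129S6 libraries, by label, the differences ran from -0.06 ± 0.17 for Dusp4 to 0.24 ± 0.14 for Klf10. With the genotypes of the file names, to which the Scn1a levels correspond, these values are 0.06 for Dusp4 and -0.24 for Klf10. Klf10 stood at 26.0, 24.7 and 24.0 CPM in the libraries labelled Scn1a+/- and 22.7, 21.2 and 19.0 CPM in those labelled wild type, with no overlap. Klf10 and Dusp6 were the 2 of 10 members without overlap there, beside 10.7% of all genes. At P14 in F1 they ran from -0.23 ± 0.12 for Dusp1 to 0.24 ± 0.11 for Rgs2 (adjusted p = 0.994 for both). There 4 of 10 members did not overlap, Gadd45g and Dusp1 lower and Dusp6 and Homer1 higher in Scn1a+/- mice, beside 12.7% of all genes, and none of them passed the test. At P14 in 129S6 they ran from -0.22 ± 0.13 for Dusp1 to 0.19 ± 0.29 for Dusp5, and 2 of 10 members, Rgs2 and Klf10, did not overlap, beside 19.0% of all genes. Tests of whether the genotype difference itself differed by age in F1, or by strain at P14 or P24, called no member. Over all genes these tests called 0.00628% of genes for strain at P24, which is 1 gene, Scn1a, and none for the others. The test for strain at P24 rests on the doubted labels, and its gene count ran from 0 to 137 over the alternatives, with no member called in any.

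Between P14 and P24 a few members changed with age in mice without the seizure label. In F1 mice 2 of 10 were called, both lower at P24, where 38.4% of all genes were called. In 129S6 mice 3 of 10 were called, where 34.3% of all genes were. Both shares of the members lie below that background, so they are not a result about the members.

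Dusp6 ran from 41.2 to 62.1 CPM with a median of 52.4 in the 5 P24 F1 libraries, and from 64.3 to 72.2 CPM with a median of 68.8 in the 6 P14 F1 libraries. In 129S6 it ran from 51.7 to 62.3 CPM (median 57.5) at P24 and from 62.6 to 80.2 CPM (median 67.2) at P14. The ages did not overlap in either strain, as held for 2 of 10 members in F1, beside 24.9% of all genes, and 3 of 10 in 129S6, beside 24.4%. It was lower at P24 by log2 -0.40 ± 0.08 in F1 (adjusted p = 0.000228) and -0.27 ± 0.08 in 129S6 (adjusted p = 0.0078).

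Klf10 was also lower at P24 in both strains without overlap. Its levels ran from 18.7 to 22.7 CPM (median 21.7) at P24 and 25.3 to 31.8 CPM (median 27.6) at P14 in F1, and from 19.0 to 26.0 CPM (median 23.3) at P24 and 26.5 to 28.8 CPM (median 27.7) at P14 in 129S6. The log2 fold change was -0.41 ± 0.10 in F1 (adjusted p = 0.00147) and -0.28 ± 0.10 in 129S6 (adjusted p = 0.0281), and the 129S6 call was lost in 4 of the fits that left out 1 library.

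Dusp5 went the other way. In 129S6 it ran from 4.73 to 8.16 CPM (median 6.43) at P24 and from 2.91 to 4.33 CPM (median 3.95) at P14, without overlap, and rose by 0.76 ± 0.18 (adjusted p = 0.00158). In F1 it ran from 4.50 to 7.79 CPM (median 7.57) at P24 and from 4.17 to 6.19 CPM (median 4.41) at P14, with overlap, and the difference of 0.40 ± 0.18 did not pass (adjusted p = 0.0835). With nearly the same difference it was called in 3 alternatives, without the low-count filter (adjusted p = 0.0318), with only the libraries compared (0.0112) and without the seizure libraries (0.0213). The difference between the strains was not called for any member, where 0.00628% of genes were, and for Dusp5 it was -0.36 ± 0.26 (adjusted p = 0.762). The largest such difference was in Dusp1, 0.31 ± 0.12 (adjusted p = 0.576). By genotype, the F1 mean of Dusp5 was 7.69 CPM at P24 and 4.54 CPM at P14 in wild type. In Scn1a+/- mice it was 5.06 CPM at P24, from 2 libraries, and 4.96 CPM at P14. The F1 average over genotypes therefore rests mainly on the wild type. The genotype difference of Dusp5 changed from P14 to P24 in F1 by log2 -0.72 ± 0.37, which was not called.

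**Figure D5:**
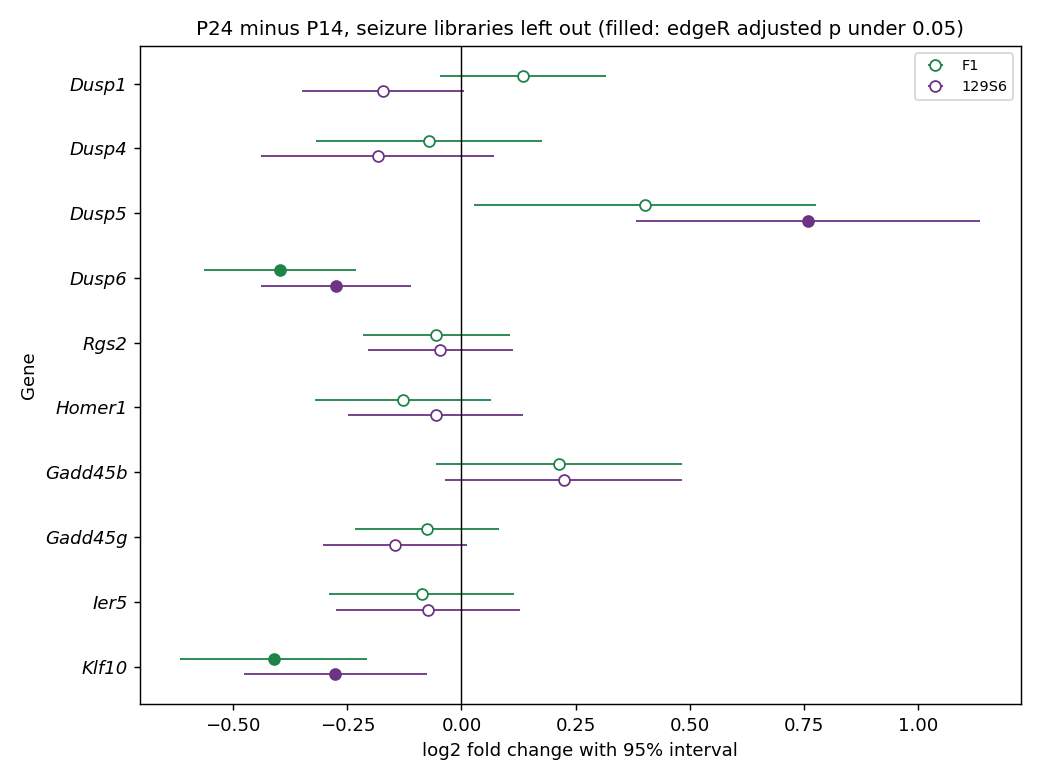
Log2 fold change of P24 over P14 (x axis) with its 95% interval for each member (y axis) in F1 and 129S6 mice. Seizure libraries are left out and both genotypes are averaged. Filled markers passed the test. Klf10 and Dusp6 are lower at P24 in both strains. Dusp5 is higher at P24, past the test in 129S6, and in F1 mainly through the wild-type mice.

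Between strains no member was called at either age, where 3.70% of all genes were called at P14 (2.04% higher and 1.66% lower in F1) and 6.33% at P24 (3.46% higher and 2.87% lower). The nearest to a call was Dusp4 at P24, which ran from 16.3 to 19.4 CPM (median 17.4) in F1 and from 11.3 to 15.5 CPM (median 14.0) in 129S6. The strains did not overlap, which held for 1 of 10 members and 6.22% of all genes, and the log2 fold change was 0.35 ± 0.12 (adjusted p = 0.0851). It was called in 3 alternatives with the same direction, without the low-count filter, with only the libraries compared in the fit, and without the seizure libraries in the fit, where the adjusted p was the lowest of these at 0.00375. At P14 the differences ran from -0.21 ± 0.09 for Dusp1 to 0.31 ± 0.20 for Dusp5, and the strains overlapped in all 10 members, while they did not in 4.48% of all genes.

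Levels were compared between members only per length, as CPM per kilobase of GENCODE vM39 exons. In P24 F1 mice after seizures Gadd45g led with 36.8 ± 3.96 CPM per kilobase, followed by Ier5 with 33.1 ± 9.78 and Rgs2 with 30.8 ± 5.39, whose ranges over libraries overlapped. Dusp1 came last with 4.45 ± 0.53, beside Dusp5 with 5.49 ± 2.11, and these overlapped too. In wild type Gadd45g led as well, with 18.3 ± 2.11, followed by Dusp6 with 15.7 ± 0.55, and their ranges overlapped. Ier5 followed with 11.6 ± 0.74, above Homer1 with 10.3 ± 0.17 and Rgs2 with 10.1 ± 0.23, which overlapped each other. The other 5 stood lower, Dusp4 at 5.99 ± 0.29, Dusp1 at 5.41 ± 0.22, Klf10 at 5.19 ± 0.20, Dusp5 at 3.10 ± 0.04 and Gadd45b at 2.86 ± 0.15 (SD, n = 3 in each group). Their order depends on the annotation, since the exon lengths used for Gadd45b and Dusp1, 2973 and 3324 bases, exceed the whole RefSeq genes, 2114 and 2882 bases. The length of Homer1, 12313 bases, counts the exons of all its forms, so its level per length is that of no single transcript.

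Profiles over the 9 group means were compared by the root mean square (RMS) difference of centred log2 levels, among the 14507 genes whose log2 CPM averaged 0 or more. The gene nearest to both Rgs2 (RMS 0.09) and Ier5 (0.08) was Bdnf, the activity-induced neurotrophin gene. Klf10 was nearest to Gem (0.09), a small GTPase gene, Gadd45b to Sertad1 (0.10), Gadd45g to Ubtd1 (0.06), Dusp4 to Trak2 (0.08) and Homer1 to Iqgap1 (0.05). Dusp6 was nearest to Socs2 (0.04), Dusp1 to 0610011F06Rik (0.05) and Dusp5 to Smad3 at a larger distance (0.16). Among the members themselves, Gadd45g and Dusp4 were nearest each other (0.09), as were Rgs2 and Ier5 (0.12), while Dusp5 lay 0.30 from its nearest member, Gadd45b, and Dusp1 lay 0.24 from Dusp6. These distances describe 9 group means only and are not scaled to how far a gene varies. The RMS of a member's own centred profile was 0.12 for Dusp1, 0.18 for Dusp6 and 0.19 for Homer1. It was 0.52 for Dusp5 and Gadd45b. A smaller distance in a flatter profile is therefore not by itself a closer match.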

How the data were processed

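Hippocampal RNA of pooled mice was sequenced from unstranded libraries, per the labels' protocols. The authors deposited raw counts for 24421 gene symbols in each library. CASAVA, TopHat2 2.1.0, HTSeq 0.6.1p1 and the build mm10 appear in the submitters' processing notes. Which annotation and strand setting the counting used is not given in the sources used here. Reads of overlapping and antisense genes can therefore not be told apart. A deposited table of normalized signal values, whose scaling method is not stated, served only to compare its columns with the counts.

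Groups follow the titles and characteristics. One edgeR 4.0.16 quasi-likelihood model (limma 3.58.1, R 4.3.3) with 9 group coefficients was fitted to the counts of all 25 libraries after TMM scaling and filterByExpr (minimum count 10). Benjamini-Hochberg adjustment ran over all 15912 genes, with calls at an adjusted p under 0.05. Biological variation was 7.57% (coefficient), on 16 residual and 15.5 prior degrees of freedom. The SE of a log2 fold change is its size over the square root of its F statistic, and 95% intervals use that SE and are not adjusted. For strain and age, genotypes were averaged and seizure libraries were not part of the contrast. CPM and fold changes were computed here. The steps were tested on simulated counts with the same spread in all groups, so the wider spread of the seizure pools was not covered.

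The members and the gene lists were chosen with earlier results of these data known. All members are named. Of each other list, up to 3 called genes with the largest change over wild type were to be named, and Pdzd2, beyond that number, was named after its values were seen. Promoters and coordinates come from RefSeq tables of GRCm38.p6, and exon lengths from GENCODE vM39. Alternatives were DESeq2 1.42.0, its size factors, no filter, a fit of only the libraries compared, a fit without the seizure libraries, and leaving out each library in turn.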

Additional observations from a re-analysis of the deposited data

Results flagged for a closer look

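Scn1a, read as the check of the labels and not as one of the 10 genes, gave the 1 result that met a rule for a closer look. Its difference between Scn1a+/- and wild type at P24 differed between F1 and 129S6 mice by -0.64 on the log2 scale (edgeR adjusted p = 0.0473), by a test of the difference itself. In F1 the seizure-free Scn1a+/- libraries were lower than wild type by log2 -0.29, and in 129S6 those labelled Scn1a+/- were higher than those labelled wild type by 0.35. In the deposited normalized table, 0 of 3 columns titled for the P24 129S6 Scn1a+/- group and 0 of 3 titled for its wild type matched a count file of the same labelled group, and all 6 matched a count file of the opposite labelled group, while the columns of every other group matched their own. The result therefore rests on the labels: with the genotypes of the file names the 129S6 difference is -0.35 and its difference from F1 0.05, which was not tested. No member of the set was called in this comparison under the labels.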

How the results depend on the processing

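The seizure results of Rgs2, Ier5, Klf10, Gadd45b and Gadd45g stayed called in every alternative run, with log2 fold changes over wild type from 1.48 to 1.72, 1.30 to 1.72, 1.26 to 1.66, 1.44 to 1.89 and 0.92 to 1.09. With only the libraries compared in the fit, 7 members stayed called over wild type, Dusp5 (adjusted p = 0.052) and Dusp6 being lost, and 6 over seizure-free mice, and leaving out 1 library gave 8 to 9 and 6 to 9. The count of members called between strains at P24 was 0 in the main result, 1 without the low-count filter, 1 with only the libraries compared, 2 without the seizure libraries, and 0 to 1 when 1 library was left out. The member called on leaving out 1 library was Dusp6, lower in F1, without the first seizure-free Scn1a+/- library. The F1 age count of 2 became 4 both with only the libraries compared and without the seizure libraries. The members added were Dusp5 and Homer1. Leaving out 1 library turned the sign of 42 of the 140 member values, and the other settings that of 2, none of them called. They include Rgs2 with age in F1 (-0.126 to 0.0192), and by genotype Dusp4 in P24 129S6 (-0.173 to 0.047, and 0.0231), Dusp1 in P14 129S6 (-0.434 to 0.0363) and Dusp5 in P14 129S6 (-0.0407 to 0.467). The cause of these shifts was not tested. No paired analysis was possible because the numbers in the titles run over the whole series and pair no libraries. With 2 or 3 pools a group, differences can be missed. The SEs and unadjusted intervals given beside some uncalled values do not show how large a difference the adjusted test could miss.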
